A study of Homo sapiens with 12 samples.

Results

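Cell adhesion genes were followed across 4 human anaplastic large cell lymphoma (ALCL) lines, SUDHL-1, DEL, Karpas299 and SUPM2, and across the side population (SP) and main population (MP) sorted from each. The set was a list of 35 genes taken by symbol from the platform's annotation: the integrin alpha and beta chains, the selectins SELP and SELE with the selectin ligand SELPLG, ICAM1, ICAM2 and ICAM3, VCAM1, CD44, CD58 and CD226. A probe set of their own was found for 34 of the 35, among 18417 named genes in all. The only probe set of ITGA1 was shared with PELO, so no value is given for it. ALCL is a lymphoma of activated T-lineage cells, and SP cells are those that keep little Hoechst dye while MP cells stay stained. The labels give no genotype change and no treatment but the dye, and all lines were grown in RPMI with serum to log phase. SUDHL-1 had 3 arrays per population, and DEL, Karpas299 and SUPM2 had 1 per population each. The labels do not say whether the SUDHL-1 replicates came from separate cultures, so their spread may be technical. Each array measures sorted cells in bulk, so fewer cells carrying a gene and less RNA per cell cannot be told apart.

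Integrins are receptors made of 1 alpha and 1 beta chain, and a chain reaches the cell surface only with a partner. The pair decides the ligand: laminins for α3β1, α6β1 and α6β4, fibronectin and VCAM1 for α4β1, fibronectin for α5β1, ICAMs for αLβ2, MADCAM1 for α4β7 and E-cadherin for αEβ7. In lymphocytes these pairs, together with selectin ligands that start rolling on vessel walls, control arrest on endothelium, homing and contact with target cells. Talin and kindlin bind beta chain tails and switch the receptors from a resting to an active shape.

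Signals are log2 values per probe set, as the authors deposited them. Probe sets differ in brightness, so differences were tested within a gene only. Across genes a level was set only against the background level described next. A gene was taken as above background in a line where its signal exceeded, on every array of that line, the 95th percentile of 341 olfactory receptor genes on the same array. That level lay between 4.33 and 4.67 on the SUDHL-1 arrays and between 4.85 and 5.18 on the others. The array medians of named genes differed in the same direction, 5.25 to 5.37 in SUDHL-1 and 5.76 to 5.80 elsewhere. Arrays of the same line correlated at 0.963 to 0.986 over all genes and arrays of different lines at 0.855 to 0.952, and within SUDHL-1 the range was 0.973 to 0.984 inside a population and 0.965 to 0.986 between SP and MP. Of 8 measured ALCL and activated T cell markers TNFRSF8 (CD30), IL2RA, GZMB, PRF1, BATF3 and MUC1 were above background in all 4 lines. CD4 was so in Karpas299 and SUPM2 and CD2 in SUPM2. Of 7 pan T cell genes CD3D was above background on all 12 arrays, CD7 in all 4 lines and CD5 in all but SUPM2. CD3E and CD3G, also of the T cell receptor complex, were above it on no array, and CD28 and TRAT1 in no line. Among markers of cells that could carry adhesion genes of their own, 1 of 6 endothelial genes (CLDN5) and 1 of 6 platelet and erythroid genes (GP9) were above background in each line. Of 8 stromal and epithelial genes 3 were above it in SUDHL-1, DEL and SUPM2 and 4 in Karpas299. COL1A1 and KRT18 were so in every line, COL1A2 in all but SUPM2, and KRT19 in Karpas299 and SUPM2. Of 5 B cell genes CD79A and PAX5 were above it in SUDHL-1 and CD79B and BLK in DEL. In Karpas299 these were CD79B, PAX5 and BLK, and in SUPM2 BLK alone. Of 8 myeloid genes 4 were above it in SUDHL-1 (CD14, CSF1R, CD163 and S100A9), 4 in DEL (CSF1R, CD163, S100A8 and S100A9), 3 in Karpas299 (CSF1R, S100A8 and S100A9) and 2 in SUPM2 (CSF1R and S100A9), while LYZ and MPO were above it in none. CD163 was brightest in SUDHL-1 (8.09 to 11.29), and CSF1R was brighter in the other lines (7.45 to 8.59) than in SUDHL-1 (4.90 to 5.55). The third SUDHL-1 MP array stood apart for several adhesion genes, and results that rest on it are given with and without it.

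The promoters of the 3 genes that differed most between SUDHL-1 and the other lines are shown first, by the centred difference tested further on, since the results turn on them. These are ITGA4, the alpha chain of α4β1 and α4β7, CD226, a receptor for PVR and NECTIN2 also called DNAM-1, and CD44, the receptor for hyaluronan. Each sequence is the 250 bases before a RefSeq transcription start (GRCh38.p14), written along the gene's strand, with matches to 6 short motifs in capitals.
ITGA4 at chr2:181457136-181457385, plus strand: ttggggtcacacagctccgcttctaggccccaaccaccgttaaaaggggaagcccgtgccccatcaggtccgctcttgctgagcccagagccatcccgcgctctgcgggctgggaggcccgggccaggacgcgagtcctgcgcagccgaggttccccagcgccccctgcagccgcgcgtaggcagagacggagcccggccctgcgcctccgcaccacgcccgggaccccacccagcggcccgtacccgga
CD44 at chr11:35138921-35139170, plus strand: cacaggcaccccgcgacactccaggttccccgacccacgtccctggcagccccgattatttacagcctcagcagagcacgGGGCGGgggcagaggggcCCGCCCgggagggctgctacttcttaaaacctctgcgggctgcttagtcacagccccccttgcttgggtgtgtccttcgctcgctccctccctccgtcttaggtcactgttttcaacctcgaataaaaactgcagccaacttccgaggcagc
CD226 at chr18:69956800-69957049, minus strand: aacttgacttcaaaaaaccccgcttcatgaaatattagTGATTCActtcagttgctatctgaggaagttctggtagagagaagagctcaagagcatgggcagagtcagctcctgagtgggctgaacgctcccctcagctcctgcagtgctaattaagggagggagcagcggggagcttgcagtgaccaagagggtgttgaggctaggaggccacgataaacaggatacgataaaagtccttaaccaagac

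The motifs searched, on both strands, were the GC box (GGGCGG), a RUNX motif (TGTGGT), an ETS motif (CCGGAAGT), an AP-1 motif (TGANTCA), a STAT motif (TTCNNNGAA) and the TATA box (TATAAA). The CD44 window held 2 GC boxes, the upstream CD226 window 1 AP-1 match and the ITGA4 window none of the 6, with a GC content of 62.4%, 49.6% and 72.8% respectively. A second CD226 start in the table, with its window at chr18:69947874-69948123, held 1 GC box. Of 35116 promoter windows of this length, 42.6% held a GC box, 11% the RUNX motif, 3.42% the ETS motif, 6.57% the AP-1 motif, 6.57% the STAT motif and 10.7% the TATA box. The table held 31 windows of 23 of the 34 measured genes, of which 14 held a GC box, 5 a TATA box, 2 a RUNX motif, 2 a STAT motif, 1 an ETS motif and 1 an AP-1 motif. A match is a run of letters and does not show that a factor binds there.

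The first question was which integrin pairs had both chains above background in each line. DEL had the widest range, with 13 of the 22 measured pairs, followed by Karpas299 with 11, SUPM2 with 7 and SUDHL-1 with 5. The laminin-binding pairs α3β1, α6β1 and α6β4 and the pair αVβ1 were above background in all 4 lines. The fibronectin and VCAM1 receptor α4β1, the fibronectin receptor α5β1 and the gut-homing receptor α4β7 were above background in DEL, Karpas299 and SUPM2 but not in SUDHL-1. By this rule α7β1, αVβ3 and αEβ7 were above background in DEL and αDβ2 in Karpas299, the leukocyte pairs αLβ2 and αXβ2 were above background in DEL and Karpas299, and αVβ5 in every line but SUPM2. The rule asks for every array and so is stricter for SUDHL-1, with 6 arrays, than for the other lines, with 2. On the mean over the arrays of a line the counts were 6 in SUDHL-1, which gained α5β1, 14 in DEL, with αDβ2, 12 in Karpas299, with αMβ2, and 8 in SUPM2, with αEβ7. By the every-array rule 8 pairs (α2β1, α8β1, α9β1, α10β1, α11β1, αMβ2, αVβ6 and αVβ8) were above background in no line. Both chains being above background is no measurement of the receptor at the surface.

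Counted by gene, 13 of 34 adhesion genes were above background in SUDHL-1, against 58.7% of all named genes, 22 in DEL (62.9% of all), 20 in Karpas299 (62.8%) and 17 in SUPM2 (59.1%). SUDHL-1 had 3 of 16 alpha chains above background, where DEL had 9, Karpas299 8 and SUPM2 7. For beta chains DEL led with 6 of 8, followed by Karpas299 with 5, SUDHL-1 with 4 and SUPM2 with 3. A group of 12 genes was above background in every line: ITGA3, ITGA6, ITGAV, ITGB1, ITGB4, ITGB7, SELPLG, ICAM1, ICAM2, ICAM3, CD44 and CD58. Another 11 were above it in some lines and 11 in none. With the stricter 99th percentile DEL had 8 pairs, Karpas299 6, and SUDHL-1 and SUPM2 4 each, and the margin of each pair over background tells how far it lies from the level chosen.

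**Figure D1:**
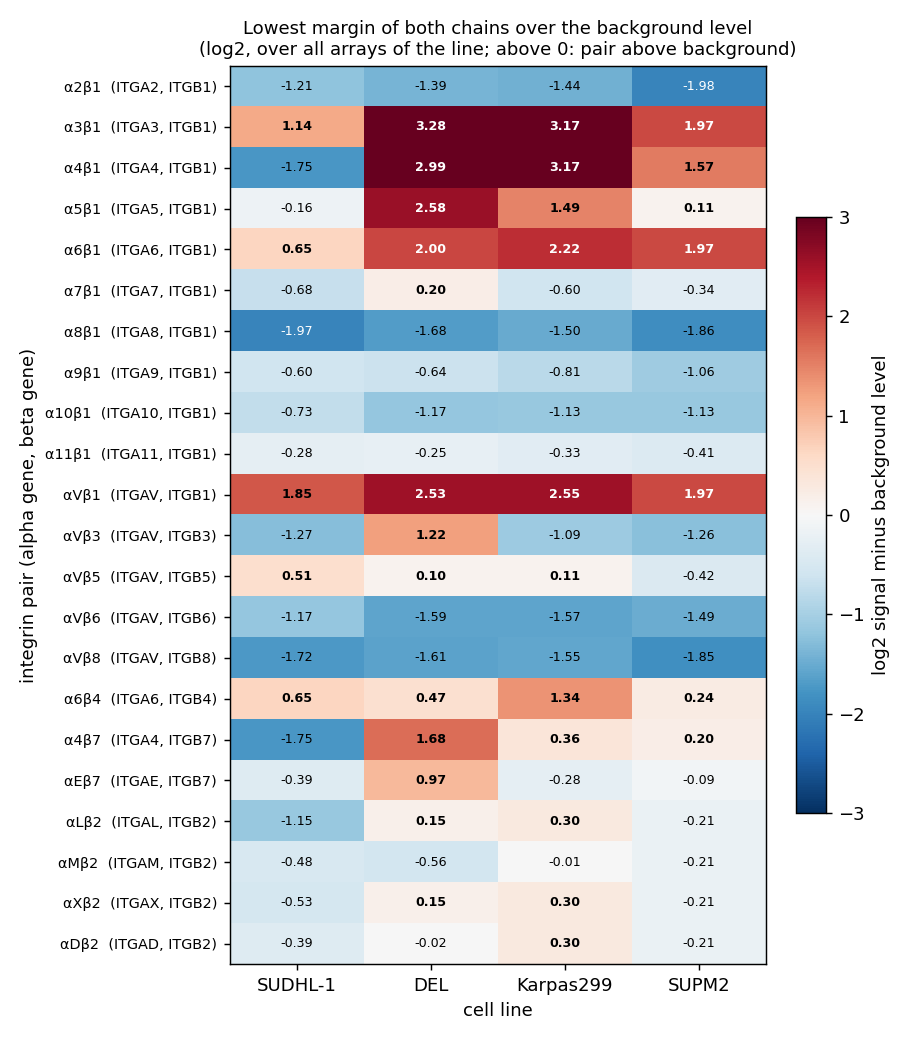
Integrin pairs (rows) by cell line (columns), coloured and numbered by the lowest log2 margin of both chains over the background level on any array of the line. Margins of α3β1, α6β1 and αVβ1 are 0.65 or more in all 4 lines, whereas the β2 pairs reach at most 0.30.

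The common beta chain ITGB1, shared by most laminin, collagen and fibronectin receptors, was bright in all lines. It measured 6.39, 6.53 and 6.97 on the SUDHL-1 SP arrays, 7.49, 7.10 and 7.59 on the MP arrays, 8.29 and 8.27 in DEL SP and MP, 8.06 and 8.14 in Karpas299 and 7.09 and 7.69 in SUPM2. ITGB1 was above background in every line, so which of its pairs passed the background rule depended on the alpha chains. Which chain limits pairing was not tested. ITGA6, a laminin receptor chain that pairs with ITGB1 or ITGB4, ranged from 5.26 to 7.26 (median 6.22) in SUDHL-1 and measured 7.01 and 7.32 in DEL, 7.42 and 7.18 in Karpas299 and 7.92 and 7.40 in SUPM2. ITGAV, which binds vitronectin and other RGD-containing ligands, ranged from 6.78 to 9.33 (median 7.55) in SUDHL-1, 9.33 being the third MP array. It measured 7.55 and 7.56 in DEL, 7.44 and 7.78 in Karpas299 and 7.72 and 7.94 in SUPM2, so all lines overlapped SUDHL-1.

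ITGA3, the alpha chain of the laminin receptor α3β1, followed a clear order. It ranged from 5.74 to 6.65 (median 6.32) in SUDHL-1 and measured 9.93 in DEL SP, 10.24 in DEL MP, 9.20 and 9.35 in Karpas299, and 7.28 and 8.74 in SUPM2. No value of a line overlapped that of another, although SUPM2 SP lay close to SUDHL-1 and its MP array close to Karpas299. ITGA5, the alpha chain of the main fibronectin receptor, ran in the same order, from 4.37 to 4.97 (median 4.48) in SUDHL-1, 7.60 and 7.54 in DEL, 6.67 and 6.45 in Karpas299 and 5.57 and 5.29 in SUPM2. In SUPM2 the margin of ITGA5 over background was 0.11, and 4 of the 6 SUDHL-1 arrays were above background for it.

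ITGA4 separated SUDHL-1 from the rest. Its 6 SUDHL-1 values lay between 2.74 and 3.34 (median 2.96), all at least 1.26 below the background level. It measured 8.20 in DEL SP and 7.84 in DEL MP, 9.43 and 8.82 in Karpas299, and 7.80 and 6.75 in SUPM2. Its partner ITGB7, the beta chain of the mucosal homing receptors, was dim in 3 lines: 4.81 to 5.03 (median 4.87) in SUDHL-1, 5.26 and 5.33 in Karpas299, and 5.31 and 5.97 in SUPM2. In DEL it measured 8.05 in SP and 6.53 in MP.

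ITGAE (CD103), which pairs with ITGB7 and marks lymphocytes held in epithelia by E-cadherin, was likewise high in DEL, at 7.03 in SP and 5.82 in MP. It measured 4.06 to 4.35 (median 4.19) in SUDHL-1, 4.61 and 4.73 in Karpas299, and 5.33 and 5.09 in SUPM2, where only the SP array passed background. Both αEβ7 genes in DEL were thus brighter on the SP array, by 1.52 for ITGB7 and 1.21 for ITGAE, with 1 array per population and so no test. E-cadherin itself (CDH1), the ligand, was below background on all 12 arrays.

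The beta2 integrins, the leukocyte receptors for ICAMs and complement, were near background. ITGB2, their shared beta chain, measured 4.12 to 4.51 (median 4.36) in SUDHL-1, 5.16 and 5.44 in DEL, 5.21 and 5.26 in Karpas299, and 5.05 and 4.97 in SUPM2. Its margin was 0.15 in DEL and 0.30 in Karpas299 and was negative in SUPM2, so the β2 pairs of those lines rest on a small difference.

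Their alpha chains varied more. ITGAL, the alpha chain of LFA-1, measured 3.31 to 3.75 (median 3.496) in SUDHL-1, 5.74 and 5.19 in DEL, 6.32 and 5.88 in Karpas299, and 6.95 and 7.20 in SUPM2. ITGAX (CD11c), a complement receptor chain, measured 4.05 to 6.07 (median 4.55) in SUDHL-1, 6.61 and 6.21 in DEL, 7.02 and 7.07 in Karpas299, and 7.19 and 7.82 in SUPM2. The SUDHL-1 value of 6.07 was the third MP array, and the other 5 lay at or below 4.73. SUPM2 was thus brightest for both alpha chains while its beta chain did not pass background. ITGAD, a chain close in sequence to ITGAX, measured 4.03 to 4.41 (median 4.34) in SUDHL-1, 4.99 and 5.15 in DEL, 5.23 and 5.37 in Karpas299, and 5.04 and 5.42 in SUPM2. ITGAM, the alpha chain of Mac-1, lay between 4.12 and 5.21 on the 12 arrays and was above background on every array of no line.

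Among the other beta chains ITGB3, the partner of ITGAV in the vitronectin receptor, stood out in DEL. It measured 6.23 in DEL SP and 6.12 in DEL MP, against 4.02 and 3.87 in Karpas299, 4.09 and 3.92 in SUPM2 and 3.27 to 4.23 (median 3.61) in SUDHL-1. ITGB4, which forms the hemidesmosome receptor α6β4, went the other way and was brightest in SUDHL-1, at 7.11 to 7.62 (median 7.30). It measured 5.49 and 5.39 in DEL, 6.60 and 6.30 in Karpas299, and 5.60 and 5.42 in SUPM2. ITGB5, a further partner of ITGAV, was close to background in DEL, Karpas299 and SUPM2, and 0.51 to 1.08 above it on the SUDHL-1 arrays. It measured 5.05 to 5.41 (median 5.31) in SUDHL-1, 5.28 and 4.94 in DEL, 5.20 and 5.07 in Karpas299, and 5.04 and 4.75 in SUPM2. ITGA7, known as a muscle laminin receptor chain, passed background in DEL by 0.20, at 5.21 and 5.25, and measured 3.75 to 4.12 (median 3.90) in SUDHL-1, 4.29 and 4.86 in Karpas299 and 4.77 and 5.10 in SUPM2.

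The remaining chains, ITGA2, ITGA8, ITGA9, ITGA10, ITGA11, ITGB6 and ITGB8, were above background in no line. ITGA8 lay between 2.56 and 3.62, ITGA10 between 3.66 and 4.23 and ITGB6 between 3.22 and 3.70 over the 12 arrays. The vascular receptors of leukocytes were also at background. P-selectin (SELP) lay between 2.81 and 3.92, E-selectin (SELE) between 3.13 and 3.58, and VCAM1, the endothelial ligand of α4β1, between 3.49 and 4.17.

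**Figure D2:**
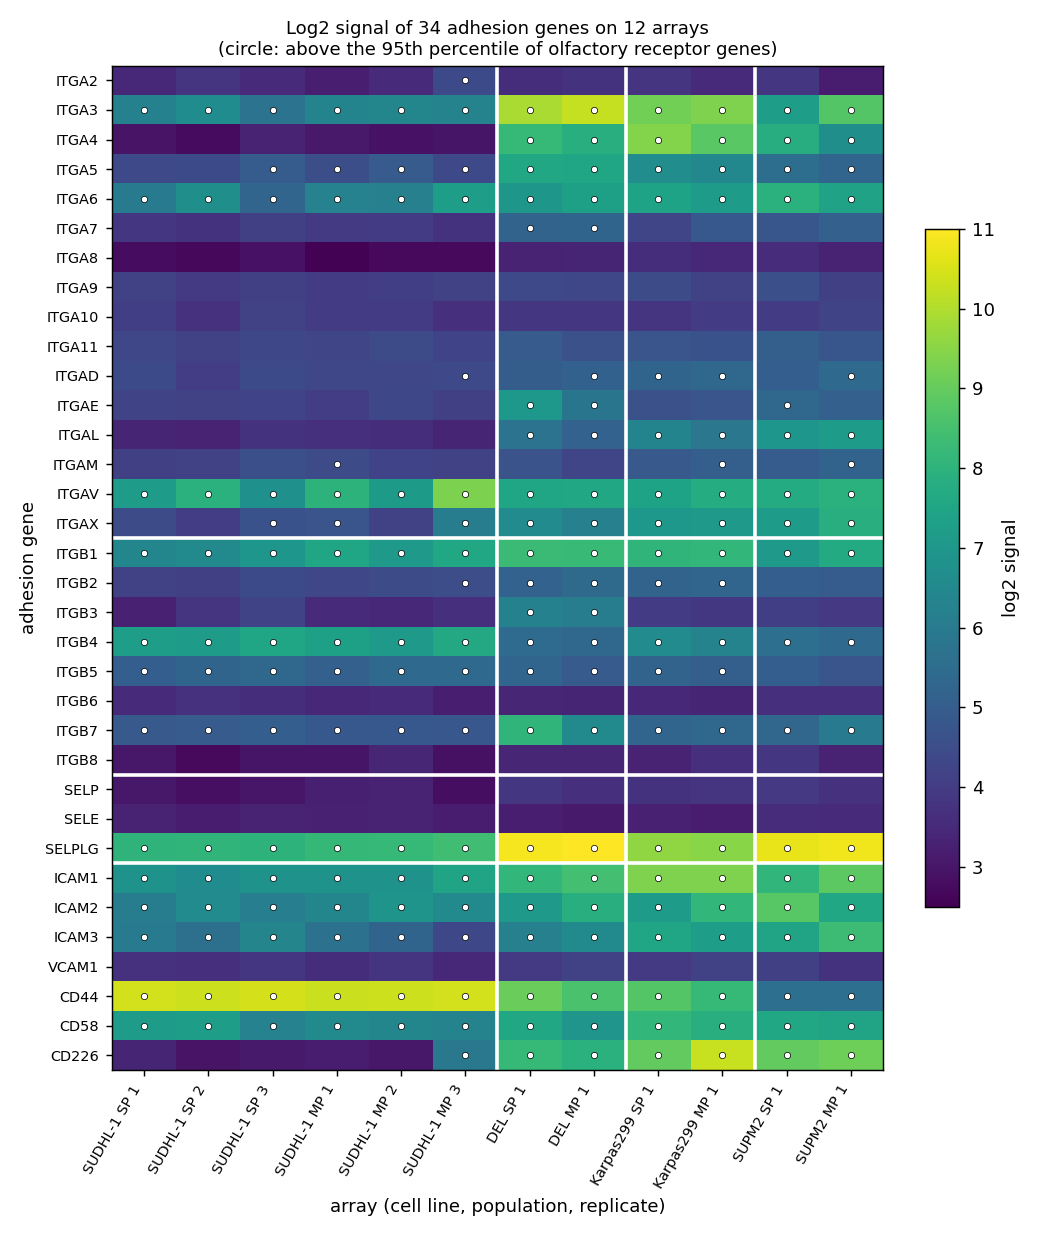
Log2 signal of the 34 measured adhesion genes (rows: alpha chains, beta chains, selectins with their ligand, then other adhesion molecules) on the 12 arrays (columns), with a circle where the signal is above the background level of that array. ITGA4 is dark in SUDHL-1 (3.34 or lower) and bright elsewhere, and so is CD226 apart from the third SUDHL-1 MP array (5.90). CD44 runs from above 10.3 in SUDHL-1 to 5.60 in SUPM2, and ITGB3 passes background in DEL.

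The ligand side of leukocyte traffic was bright. SELPLG (PSGL-1), the main ligand of P-selectin, measured 7.995 to 8.38 (median 8.10) in SUDHL-1, 10.88 and 11.07 in DEL, 9.59 and 9.498 in Karpas299, and 10.73 and 10.83 in SUPM2. The 4 lines did not overlap. CD44 ran in the opposite sense between SUDHL-1 and the rest: 10.32 to 10.44 (median 10.38) in SUDHL-1, 9.05 and 8.56 in DEL, 8.72 and 8.20 in Karpas299, and 5.60 and 5.60 in SUPM2. In SUPM2 CD44 still passed background, by at least 0.43.

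ICAM1, ICAM2 and ICAM3, ligands of the β2 integrins, were above background in every line. ICAM1 measured 6.64 to 7.45 (median 6.86) in SUDHL-1, 8.13 and 8.47 in DEL, 9.37 and 9.37 in Karpas299, and 8.11 and 8.86 in SUPM2. ICAM2, constitutive on lymphocytes and endothelium, measured 6.09 to 6.90 (median 6.46) in SUDHL-1, 7.06 and 7.83 in DEL, 7.15 and 8.14 in Karpas299, and 8.78 and 7.59 in SUPM2. ICAM3, a leukocyte ICAM, measured 4.34 to 6.35 (median 5.67) in SUDHL-1, 6.21 and 6.56 in DEL, 7.54 and 7.26 in Karpas299, and 7.45 and 8.33 in SUPM2. The lowest ICAM3 value was the third SUDHL-1 MP array, which passed the background level by 0.011.

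CD58 (LFA-3), the ligand of CD2, was above background in every line, at 6.28 to 7.24 (median 6.47) in SUDHL-1, 7.58 and 6.93 in DEL, 8.12 and 7.87 in Karpas299, and 7.55 and 7.48 in SUPM2. Its receptor CD2 was bright in SUPM2 only, at 9.42 and 8.96, and between 3.39 and 4.54 on the other 10 arrays. CD226 measured 8.21 and 7.94 in DEL, 8.97 and 10.29 in Karpas299, and 8.95 and 9.14 in SUPM2. In SUDHL-1 5 arrays lay between 2.96 and 3.38, below background, and the third MP array measured 5.90.

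**Figure D3:**
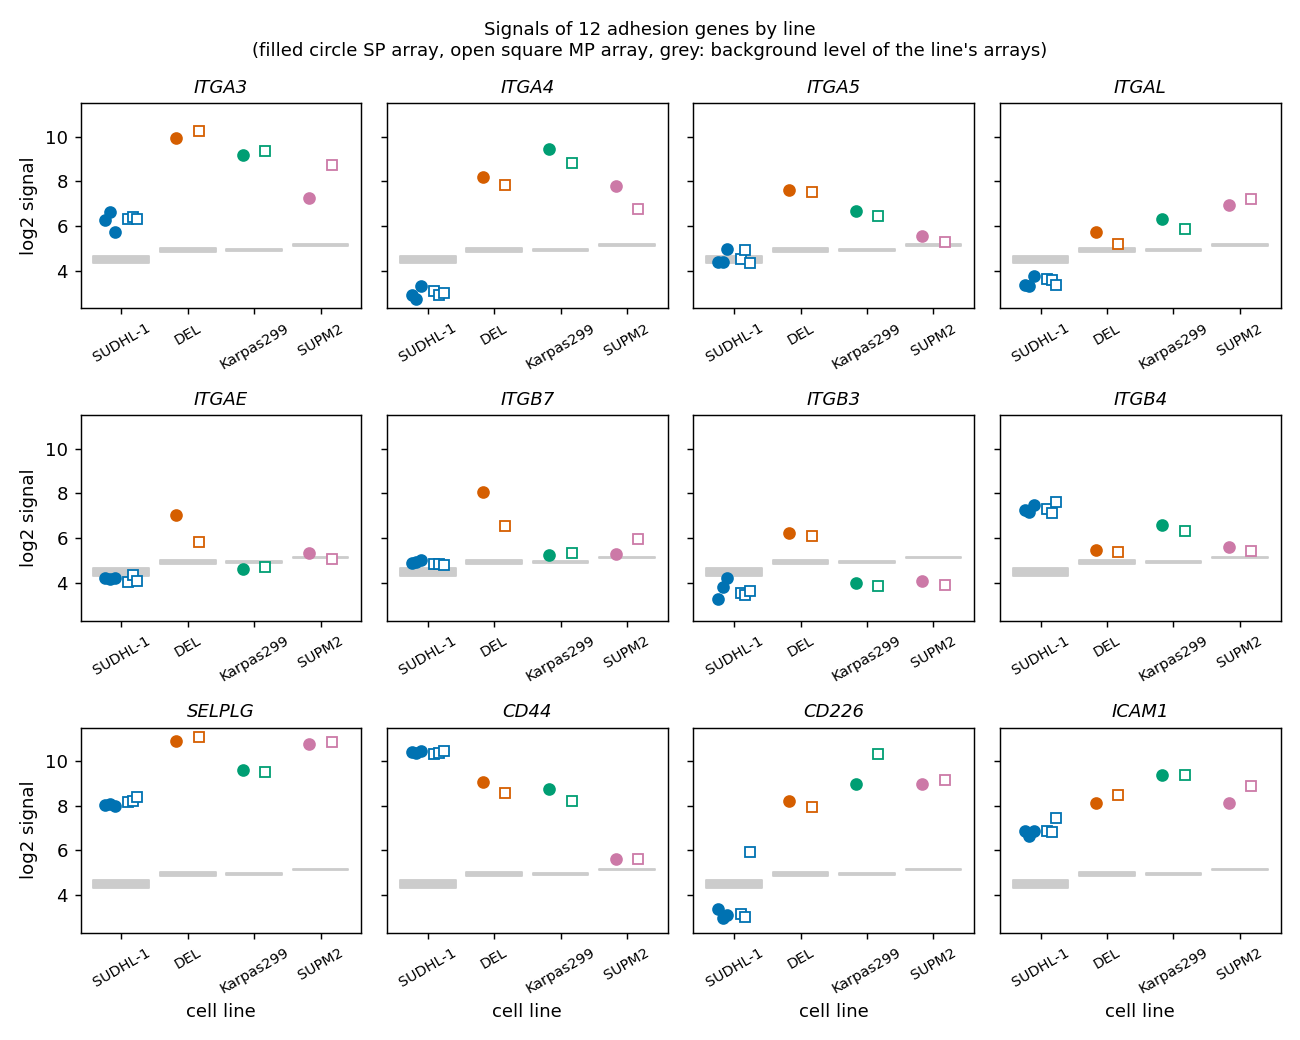
Log2 signals of 12 adhesion genes in the 4 lines, with filled circles for SP arrays, open squares for MP arrays and grey bands for the background levels of the arrays of a line. ITGA4 and ITGAL lie below the band in SUDHL-1, ITGB3 lies above it in DEL, and a single SUDHL-1 MP array of CD226 at 5.90 stands above the other 5.

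SUDHL-1 was then tested against the mean of the other 3 lines. Because the SUDHL-1 arrays have lower medians, each array was first centred on its median over named genes. With limma and Benjamini-Hochberg adjustment over 18417 genes, 25 of 34 adhesion genes passed the adjusted threshold of 0.05, 6 higher and 19 lower in SUDHL-1, where 54.2% of all named genes passed (34.6% higher and 19.6% lower). The median difference of the adhesion genes was -0.44, and that of all genes was 0.13. Among the alpha chains 1 of 16 was higher and 9 lower. Among the beta chains 3 of 8 were higher and 4 lower, and of the 7 immunoglobulin adhesion molecules and CD44 1 was higher and 5 lower. SUDHL-1 arrays share a lower median, and the sources used here do not give whether all 12 arrays were normalized together, so a difference of the line and one of the array set cannot be told apart.

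The split depended on the scaling. As deposited, 2 adhesion genes were called higher and 25 lower, and after quantile normalization 6 higher and 21 lower, while the share of higher calls among all called genes was 63.9% centred, 24.96% as deposited and 51.0% after quantile normalization. The same scalings gave a median difference of all genes of 0.13, -0.33 and 0.01. A stricter reading, chosen after these values were seen, asked for the adjusted threshold and a 2-fold difference under all 3 scalings. It was met by 11 adhesion genes, 2 higher and 9 lower, where 12.9% of all genes met it (6.61% higher and 6.28% lower).

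The units of this comparison are arrays, so its SE and p hold the spread within lines and not that between the 3 reference lines. With 1 line against 3, they do not reach beyond these 4 lines. The 2 genes higher in SUDHL-1 were CD44, by 3.22 on the log2 scale (SE 0.10, adjusted p = 7.7e-09 in limma), and ITGB4, by 1.99 (SE 0.11, adjusted p = 2.7e-07 in limma). The CD44 reference means ran from 8.80 (DEL) and 8.46 (Karpas299) down to 5.60 (SUPM2), a spread that its SE leaves out. The 9 lower genes were led by CD226, with a difference of -4.87 (SE 0.45, adjusted p = 7.9e-06 in limma), and ITGA4, at -4.68 (SE 0.16, adjusted p = 1.2e-08 in limma). The alpha chains ITGA3 (-2.38), ITGAL (-2.24), ITGAX (-1.85) and ITGA5 (-1.46) followed, with SELPLG (-1.84), ICAM1 (-1.34) and ICAM3 (-1.21). The limma adjusted p of these 7 ranged from 1.2e-07 for SELPLG to 0.0068 for ICAM3. Without the third SUDHL-1 MP array the difference was -5.30 for CD226, -2.11 for ITGAX, -1.42 for ICAM1 and -0.97 for ICAM3. All 4 still passed the adjusted threshold, but ICAM3 then differed by less than 2-fold.

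The other 14 called genes differed by less or depended on the scaling. The lower ones were ITGA7 (-0.55), ITGA8 (-0.27), ITGAD (-0.44), ITGAE (-0.79), ITGB1 (-0.45), ITGB2 (-0.39), ITGB3 (-0.58), ITGB7 (-0.72), ICAM2 (-0.86) and CD58 (-0.47). A call against the mean of 3 lines does not place SUDHL-1 below each of them. Deposited ITGB3 signals were 6.23 and 6.12 in DEL, and the SUDHL-1 range (3.27 to 4.23) covered both Karpas299 and SUPM2. ITGB7 averaged 4.89 in SUDHL-1, 5.29 in Karpas299, 5.64 in SUPM2 and 7.29 in DEL. ITGAE averaged 4.19, 4.67, 5.21 and 6.42 in the same order. For both, the gap to Karpas299 was about as large as that between the array medians. The calls of ITGB1 and CD58 were the least steady: ITGB1 passed under 11 of 17 alternatives and CD58 under 7 of 17. With an array left out, the ITGB1 difference lay between -0.55 and -0.35 and that of CD58 between -0.57 and -0.33, with limma adjusted p up to 0.10 and 0.12. The higher ones were ITGB5 (0.68), ITGB6 (0.46), ITGA10 (0.46) and SELE (0.41). As deposited, ITGB5 measured 0.22, ITGB6 0.00067, ITGA10 -0.0038 and SELE -0.047, none past the threshold, and the last 3 were at background in every line.

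**Figure D4:**
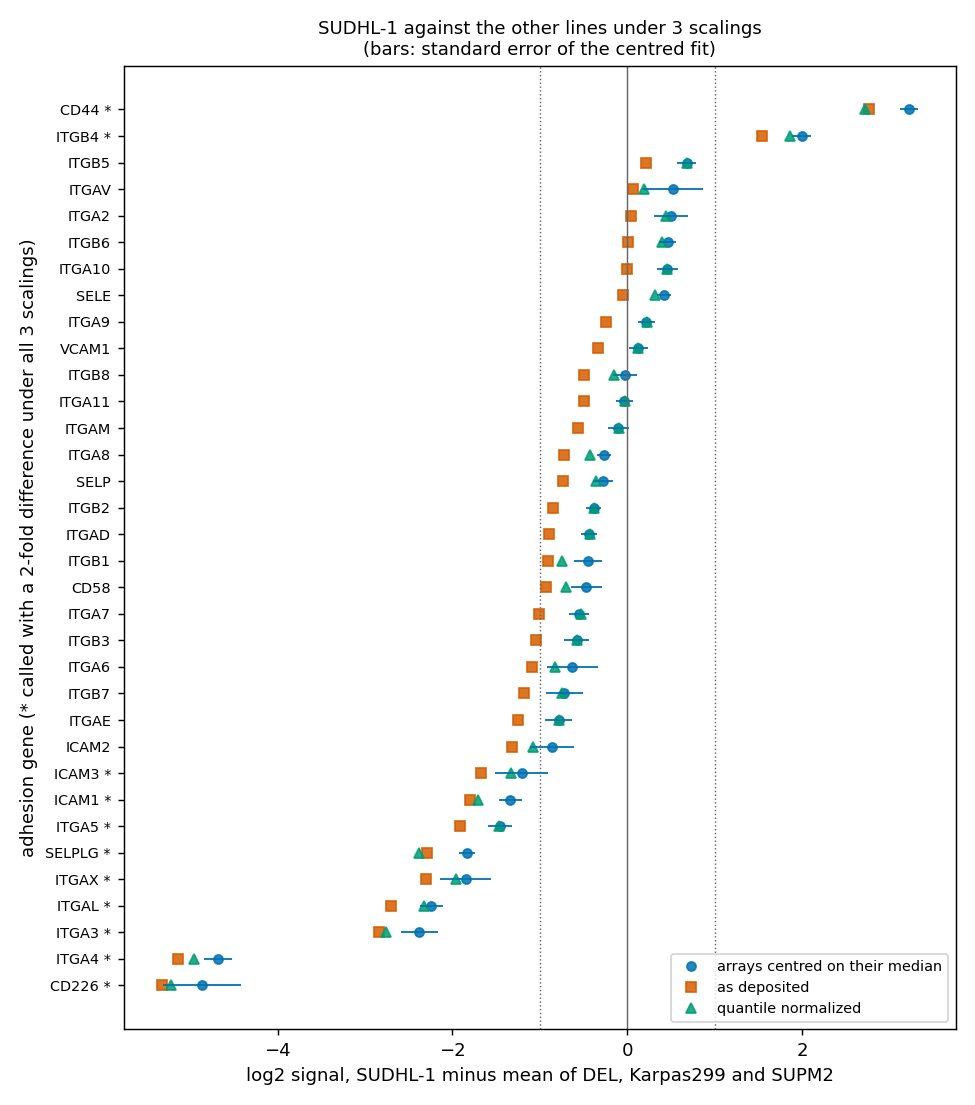
Log2 difference of SUDHL-1 from the mean of DEL, Karpas299 and SUPM2 for 34 adhesion genes under 3 scalings (circles centred on the array median with standard errors, squares as deposited, triangles quantile normalized), with dotted lines at a 2-fold difference. CD44 and ITGB4 lie beyond 1.5 to the right and ITGA4 and CD226 beyond -4.5 to the left under all 3 scalings, while ITGA10 and SELE change sign as deposited.

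DEL, Karpas299 and SUPM2 were compared with each other on the deposited values, with population as a covariate. The SP and MP array of a line serve as its 2 arrays, so the spread in these limma fits comes mostly from the SUDHL-1 replicates and from lines differing between populations. Between DEL and Karpas299 7 of 34 adhesion genes passed, against 5.2% of all genes (2.95% higher and 2.25% lower in DEL). DEL was higher for ITGB3 by 2.23 (SE 0.25), ITGB7 by 2.00 (SE 0.37), ITGAE by 1.75 (SE 0.28), SELPLG by 1.43 (SE 0.16) and ITGA5 by 1.00 (SE 0.25). Karpas299 was higher for ICAM1 (-1.07, SE 0.24) and ITGB4 (-1.01, SE 0.20). The limma adjusted p ranged from 0.00032 for SELPLG to 0.042 for ITGA5. Without the Karpas299 SP array 2 of the 7 passed (ITGB3 and SELPLG), without the DEL SP or the Karpas299 MP array 3 genes passed, and without the DEL MP array 4.

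Between DEL and SUPM2 7 adhesion genes passed, against 8.34% of all genes (5.6% higher and 2.74% lower in DEL). DEL was higher for CD44 by 3.20 (SE 0.18, limma adjusted p = 2.2e-06), ITGB3 by 2.17 (SE 0.25), ITGA5 by 2.14 (SE 0.25), ITGA3 by 2.08 (SE 0.35), ITGB7 by 1.65 (SE 0.37) and ITGAE by 1.21 (SE 0.28). SUPM2 was higher for ITGAL, the LFA-1 alpha chain (-1.61, SE 0.24, limma adjusted p = 0.0019). Without the DEL SP array, which carries the high ITGAE and ITGB7 values, these 2 no longer passed: ITGAE differed by 0.63 and ITGB7 by 0.85.

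Between Karpas299 and SUPM2 8 adhesion genes passed, against 10.7% of all genes (6.58% higher and 4.12% lower in Karpas299). Karpas299 was higher for CD44 by 2.86 (SE 0.18, limma adjusted p = 6.0e-06), ITGA4 by 1.85 (SE 0.28, limma adjusted p = 0.0020), ITGA3 by 1.27 (SE 0.35), ITGA5 by 1.14 (SE 0.25), ITGB4 by 0.94 (SE 0.20) and ICAM1 by 0.88 (SE 0.24). SUPM2 was higher for SELPLG (-1.24, SE 0.16) and ITGAL (-0.98, SE 0.24). The calls of ITGA3 and ICAM1 were the least steady of the 8, each passing under 4 of 12 alternatives. Without the SUPM2 SP array, the lowest of these lines for ITGA3, the ITGA3 difference was 0.62 and did not pass. Without either Karpas299 array 4 of the 8 passed.

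SP and MP cells were compared within SUDHL-1, over the 4 lines, and between SUDHL-1 and the others. In none of these 3 comparisons did limma call an adhesion gene, or any of the 18417 genes (0% called). At an unadjusted p under 0.05 there were 577 genes within SUDHL-1, 904 over the lines and 661 in the test of the difference, with 2 adhesion genes in each. SP signals were the higher ones for 14 of 34 adhesion genes within SUDHL-1, for 20 within DEL and for 18 within each of Karpas299 and SUPM2. Over all genes SP was higher for 49.9%, 52.7%, 49.2% and 57.8% in that order of lines. The median differences were -0.05, 0.05, 0.04 and 0.06 for the adhesion genes.

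Within SUDHL-1 the smallest p among adhesion genes belonged to ITGB1, the common beta chain. Its SP arrays averaged 6.63 ± 0.31 and its MP arrays 7.39 ± 0.26 (SD, n = 3 each), and the groups did not overlap. The difference was -0.76 (SE 0.21), with an unadjusted p of 0.0078 and an adjusted p of 1.00 in limma. ICAM3 measured 6.05, 5.63 and 6.35 in SP against 5.71, 5.25 and 4.34 in MP, a difference of 0.91 (SE 0.36, unadjusted p = 0.036 and adjusted p = 1.00 in limma). These groups overlapped, and without the third MP array the difference was 0.53 (unadjusted p = 0.086 and adjusted p = 1.00 in limma). CD58 differed by 0.48 and ICAM2 by -0.33, each with a limma adjusted p of 1.00. Apart from ITGB1, SELPLG was wholly lower in SP (8.04, 8.05 and 7.995 against 8.16, 8.19 and 8.38), and ITGB7 wholly higher (4.89, 4.94 and 5.03 against 4.85, 4.85 and 4.81). Of all genes 3.42% were wholly lower and 3.74% wholly higher.

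Over the 4 lines the 2 adhesion genes with an unadjusted p under 0.05 were ITGA4 and CD58, and both were higher in SP in 4 of 4 lines. ITGA4 differed by 0.0023 in SUDHL-1, where it was below background, 0.37 in DEL, 0.61 in Karpas299 and 1.05 in SUPM2, a mean of 0.51 ± 0.44 (SD, n = 4 lines, unadjusted p = 0.031 and adjusted p = 0.92 in limma). CD58 differed by 0.48, 0.65, 0.26 and 0.07 in the same order, a mean of 0.36 ± 0.25 (SD, n = 4 lines, unadjusted p = 0.032 and adjusted p = 0.92 in limma). ITGB3 and SELE were also higher in all 4, by means of 0.16 and 0.07, although ITGB3 was above background in DEL alone and SELE nowhere. Of all genes 8.09% were higher in SP in all 4 lines and 5.65% lower.

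The adhesion genes lower in SP in every line were ITGA3, ITGAV and ITGAD. ITGA3 differed by -1.46 in SUPM2, against -0.31 in DEL, -0.15 in Karpas299 and -0.14 in SUDHL-1, a mean of -0.52 ± 0.63 (SD, n = 4 lines). ITGAV differed by -0.86 in SUDHL-1, -0.34 in Karpas299, -0.22 in SUPM2 and -0.01 in DEL, a mean of -0.36 ± 0.36, which was -0.21 without the third SUDHL-1 MP array. ICAM1, with a mean of -0.34 ± 0.31, was lower in SP in 3 of 4 lines, and its limma adjusted p, like that of ITGA3 and ITGAV, was 0.92. In SUDHL-1 the ICAM1 difference rests largely on the third MP array. There ICAM1 measured 6.86, 6.64 and 6.87 in SP against 6.87, 6.82 and 7.45 in MP.

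The population difference of single genes went opposite ways in different lines. ICAM2 differed by -0.77 in DEL and -0.98 in Karpas299 but by 1.19 in SUPM2, and CD226 by -1.32 in Karpas299 and 0.27 in DEL. These are single pairs of arrays, with no test within a line. The test of SUDHL-1 against the other lines gave its smallest p for ITGA4, where the differences differed by -0.68 (SE 0.27, unadjusted p = 0.032 and adjusted p = 1.00 in limma). ITGA4 was below background on all 6 SUDHL-1 arrays, so a population difference could not be read there. ICAM3 came next (1.23, SE 0.49, unadjusted p = 0.032 and adjusted p = 1.00 in limma), then ITGB1 (-0.54) and ITGB5 (-0.33). Without the third SUDHL-1 MP array the ICAM3 value was 0.85 (unadjusted p = 0.059 and adjusted p = 1.00 in limma).

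**Figure D5:**
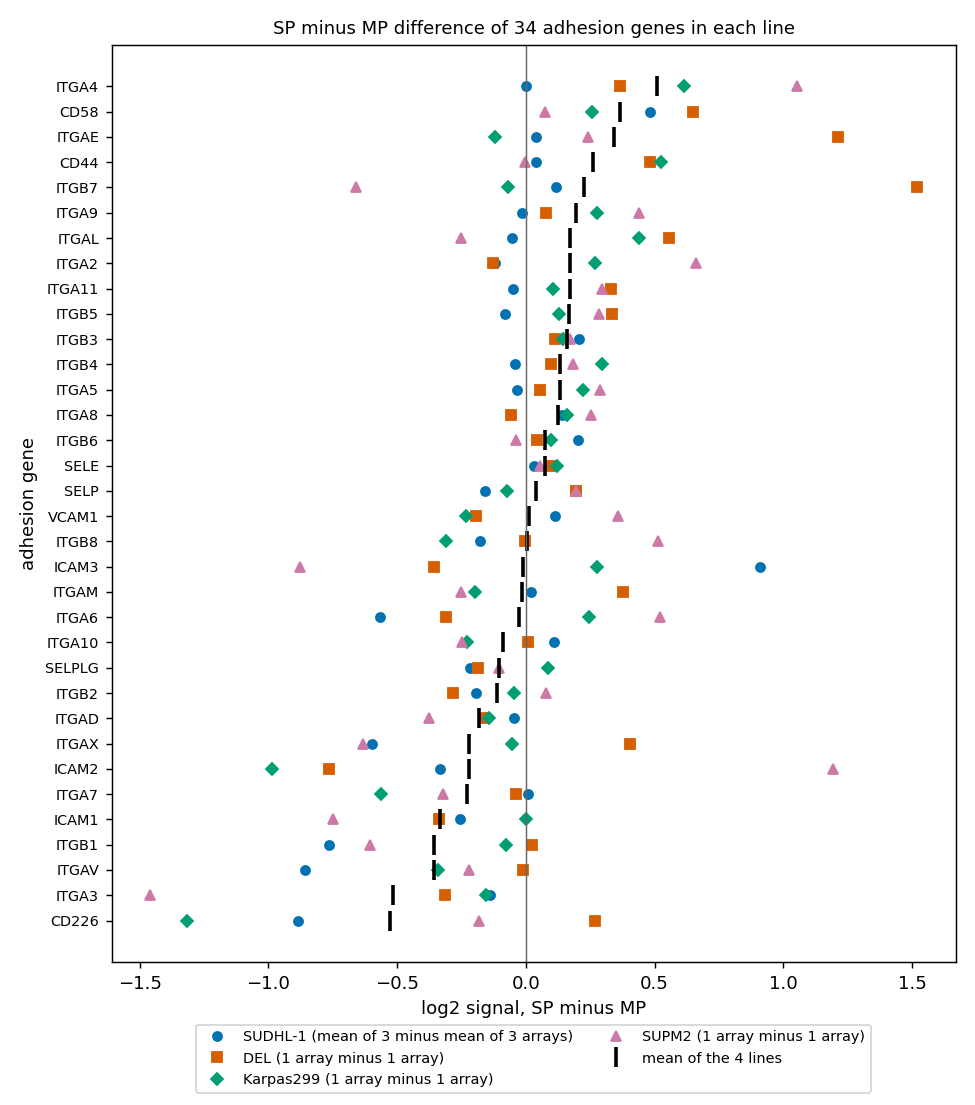
SP minus MP difference in log2 signal for 34 adhesion genes, 1 marker per line and a bar for the mean of the 4 lines, ordered by that mean. ITGA4 and CD58 lie at or right of 0 in every line and ITGA3 and ITGAV left of it, and ITGB7 spreads from -0.66 in SUPM2 to 1.52 in DEL.

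The rest of the adhesion machinery was read from lists of genes around the integrins and selectins, by the same tests. The first list, named activators and adaptors, held proteins that regulate integrins in either direction, signal from them or link them to actin. Of 35 measured activators and adaptors 8 were called higher and 16 lower (centred), and 1 and 10 by 2-fold under all 3 scalings, against 6.61% and 6.28% of all genes. Among the genes lower by that rule were RAC2, the haematopoietic Rac GTPase (-2.84), RASSF5, the Rap effector of LFA-1 (-2.72), ILK, the integrin-linked kinase (-2.03), FERMT3, the kindlin of blood cells (-1.77), PTK2B (-1.62), TLN1, talin (-1.61) and PARVG (-1.50), with limma adjusted p from 3.2e-07 to 5.2e-05. Higher than the mean of the other lines was APBB1IP, the Rap1 effector RIAM (1.56, limma adjusted p = 0.00052). As deposited, APBB1IP averaged 6.22 in SUDHL-1 but 7.28 in Karpas299, against 4.10 in DEL and 3.96 in SUPM2. The median of the list was -0.31, against 0.13 for all genes.

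Matrix and soluble ligands went both ways, with 7 of 26 called higher in SUDHL-1 and 6 lower (centred), where 34.6% of all genes were called higher and 19.6% lower. By 2-fold under all 3 scalings 3 were higher and 4 lower, against 6.61% and 6.28% of all genes. FGB, the fibrinogen beta chain, averaged 11.28 in SUDHL-1 against 8.31 in Karpas299, 5.52 in DEL and 3.33 in SUPM2. LAMB1, a laminin beta chain, averaged 8.73 in SUDHL-1 and 9.62 in DEL but 5.08 in Karpas299 and 4.49 in SUPM2. LAMB3 (-2.63), TNC (-2.25) and LAMC1 (-2.002) were lower in SUDHL-1, and SPP1, osteopontin, higher (2.72, limma adjusted p = 0.0036).

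The same 2 background shares apply to the lists that follow. Of 22 other adhesion partners 6 were called higher and 8 lower in SUDHL-1, and 2 and 3 by the 2-fold rule. CD96, which binds PVR as CD226 does, differed by -4.75 (limma adjusted p = 5.0e-09), and ALCAM (2.32) and JAM2 (1.94) were higher than the mean of the other lines. As deposited, ALCAM averaged 9.76 in SUDHL-1 and 10.25 in DEL, against 5.69 in Karpas299 and 7.77 in SUPM2. Of 14 tetraspanins, membrane organisers that bind integrins laterally, 2 were called higher and 8 lower, and 0 and 4 by the 2-fold rule, CD9 the most (-2.92, limma adjusted p = 1.5e-08), followed by CD53 (-1.96) and CD81 (-1.30). Of 14 enzymes that build selectin ligands 1 was called higher and 6 lower, and 0 and 1 by the 2-fold rule. That 1 was B4GALT1 (-1.63), and FUT7, the fucosyltransferase of leukocyte selectin ligands (-0.996), was called but did not meet it.

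The same lists were read between the other 3 lines. DEL minus Karpas299 had 5 activators and adaptors higher and 4 lower of 35, where 2.95% of all genes were higher and 2.25% lower, with FERMT2, the broadly expressed kindlin, at 5.36 and SKAP1, an adaptor of LFA-1 signalling, at -3.49 (limma adjusted p = 4.4e-05 and 0.00011). In the same comparison 3 ligands were higher and 1 lower, 2 partners higher and 0 lower (ALCAM 4.56 and NECTIN3 3.25), 2 tetraspanins higher and 1 lower, and 0 of the enzymes called, of which 0 had an unadjusted p under 0.05. DEL minus SUPM2, with 5.6% of all genes higher and 2.74% lower, had 4 activators higher and 0 lower, 3 ligands higher and 1 lower, 2 partners higher and 1 lower (CD2, -4.79), 1 enzyme higher (TPST2, 0.79) and 3 tetraspanins higher (CD9 3.11, CD151 1.79 and CD82 1.66). Karpas299 minus SUPM2, with 6.58% of all genes higher and 4.12% lower, had 6 activators higher and 3 lower, led by APBB1IP (3.32), SKAP1 (3.31) and PARVG (2.70) above and FERMT2 (-3.05) below, 1 ligand higher and 3 lower, 2 partners higher and 4 lower, 1 enzyme in each direction and 4 tetraspanins higher and 1 lower. In the SP against MP comparisons 0 genes of these lists passed in limma, and within SUDHL-1 2 activators, 2 ligands and 1 tetraspanin had an unadjusted p under 0.05.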

How the data were processed

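RNA of sorted SP and MP cells from 4 ALCL lines was amplified (NuGEN whole-transcript kit), biotinylated and measured on 12 Affymetrix arrays, per the labels' protocols. The authors deposited log2 signals per probe set. The submitters' processing notes name RMA; its version, and whether all 12 arrays were normalized together, are not given in the sources used here. Of 33297 probe sets 19460 carried 1 gene symbol in the platform annotation, 1754 several and 12083 none. The probe set with the highest mean stood for each of 769 genes with several, leaving 18417 genes, and 19429 of the named probe sets matched RefSeq (GRCh38.p14) by Entrez identifier. Arrays have no read depth, so their number limits the precision.

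All fits used limma 3.58.1 (lmFit and eBayes, R 4.3.3), two-sided, with Benjamini-Hochberg adjustment over 18417 genes and a threshold of 0.05, and were tested on simulated data. Within SUDHL-1 the 6 arrays were fitted without a block (4 residual degrees of freedom). Over lines, 1 SP minus MP difference per line was tested against 0 (3 degrees of freedom). The comparison of that difference between SUDHL-1 and the others used all 12 arrays with line as a block (6 degrees of freedom). Lines were compared in a fit of 12 arrays with population as covariate (7 degrees of freedom), centred on array medians for SUDHL-1. Pairs were 23 known alpha and beta combinations, 22 of them measured. The members, gene lists and rules were chosen with earlier results of these data known. Every measured member could be named, with values on every array for those called, for chains of pairs present in some lines, and for the 4 of smallest p in each SP against MP comparison; of each list around the integrins up to 4 genes per direction were named by smallest p in the line comparisons, and activators past the 2-fold rule beyond these were chosen after their values were seen. Alternatives changed the filter on dim genes, the normalization, the centring, the probe set rule, the variance model, the arrays and the background level.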

Additional observations from a re-analysis of the deposited data

Results flagged for a closer look

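In 68 groups of adhesion gene values, 34 over the 6 SUDHL-1 arrays and 34 over the 4 line differences, 5 had an extreme value whose gap to the nearest other value, as a share of the whole range, was above Dixon's critical value. Chance alone gives about 1 in 20.

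The third SUDHL-1 MP array was the extreme in 3 of them. For CD226 it measured 5.90 against 2.96 to 3.38 on the other arrays, a gap of 0.858 of the range. For ICAM1 it measured 7.45 against 6.64 to 6.87 (0.714 of the range), and for ITGAX 6.07 against 4.05 to 4.73 (0.665). Of 8 myeloid genes on that array CD163 (11.29 against 8.09 to 9.21) and CSF1R (5.55 against 4.90 to 5.10) were the highest of the 6, LYZ (2.68 against 2.76 to 2.99) was the lowest, and CD14, FCGR3A, MPO, S100A8 and S100A9 lay within the range of the others. The part of that array's makeup in the 3 values was not tested.

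ITGAD was low on the second SUDHL-1 SP array, 4.03 against 4.30 to 4.41 (0.708 of the range), where the gene was not above background. In the SP minus MP differences of the 4 lines, ITGA3 in SUPM2 stood apart at -1.46, against -0.31 to -0.14 in the other lines (0.869 of the range). It rests on 1 SP and 1 MP array.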

How the results depend on the processing

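Leaving out single arrays moved the comparisons among DEL, Karpas299 and SUPM2 most. The 7 adhesion genes called for DEL minus Karpas299 became 2 to 7 with an array left out, and 2 in a fit of only the 6 arrays of these lines, where the count over all genes went from 958 to 444 (428 to 1012 with an array left out). For Karpas299 minus SUPM2 the 8 genes became 4 to 6 and, with 6 arrays, 5, and all genes went from 1971 to 1255 (1051 to 1816). DEL minus SUPM2 gave 5 to 7, with 1536 genes in all and 869 with 6 arrays (665 to 1401). SELPLG, then ITGA3, ITGA5, ITGAL and CD44, then ITGA4, SELPLG and CD44 passed under all 12 alternatives in DEL minus Karpas299, DEL minus SUPM2 and Karpas299 minus SUPM2, respectively. ITGB3 passed in the first and second under the 11 that tested it, since the filter on dim genes left it out. For SUDHL-1 against the rest 17 of 25 passed under all 17, and ITGB3 under the 16 that tested it. The count was 23 to 27 with an array left out, and asking for 2-fold under 3 scalings, chosen after seeing the data, left 11. As deposited, ITGA10 (-0.0038) and SELE (-0.047) reversed. Of 834 values of single genes under alternatives 759 kept direction and side, 73 lost the call (56 of them with an array or line left out) and 2 reversed. The 759 include the 4 genes of smallest p in each SP against MP comparison. These were not called in the main fit and had no call to lose, so the pooled share overstates how steady the line calls were. The cause of the losses was not tested.

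The pairs above background fell, from 5, 13, 11 and 7 in SUDHL-1, DEL, Karpas299 and SUPM2, to 2, 8, 6 and 4 against the array median, and to 4, 8, 6 and 4 against the 99th percentile, and rose to 6, 14, 12 and 8 on the mean over the arrays of a line. SP against MP called 0 adhesion genes under each alternative run. SUDHL-1 replicate numbers did not pair the arrays (correlations of -0.0037, -0.077 and -0.13 for equal numbers), and a replicate block also called 0. Precision is limited by 1 array per population in 3 lines and by signals near background.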
